A study of Mus musculus with 20 samples.

Results

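The MHC class I presentation genes described here are 9 genes, H2-K1, H2-D1, B2m, Tap1, Tap2, Tapbp, Nlrc5, Psmb8 and Psmb9, chosen by name from the 54532 genes counted in the tumor-centric tissue libraries and in the cells sorted from metastases, and all 9 passed the filter on low counts in every fit. The mice were wild-type (WT) C57BL/6 animals in the model of colorectal liver metastasis (CRLM), in which 1000000 Mc38 cells, a colon carcinoma line of C57BL/6 origin, reached the liver through the spleen and portal vein. The tissue groups were normal liver on day 0 after normal saline (con, 2 libraries), tumor-free liver remote from the tumor at 12 days post-injection (dpi) of Mc38 cells (L-con, 1 library), low tumor-content metastases at 9 dpi (Lt, 2 libraries), medium-content metastases at 9 dpi (Mt3, 2 libraries) and at 11 dpi (Mt2 and Mt1, 2 libraries each), and high-content metastases at 12 dpi (Ht, 3 libraries). From Mt2 metastases at 11 dpi, F4/80+ and CD11b+ cells were taken with microbeads (F4/80+TAM and CD11b+TAM, 3 libraries each). According to the Methods the mice were 6 to 8 weeks old, and each tissue group apart from L-con came from 2 livers. For the sorted cells the labels do not tie replicates to separate mice, so p-values there measure the spread between these samples, which may be technical.

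MHC class I molecules carry peptides from inside the cell to its surface, where CD8+ T cells read them. The proteasome cuts proteins into peptides, and interferon-gamma replaces its catalytic subunits by the immunoproteasome subunits Psmb8, Psmb9 and Psmb10. The transporter Tap1-Tap2 moves the peptides into the endoplasmic reticulum, Tapbp (tapasin) holds an empty class I molecule at the transporter, and the peptide binds the heavy chain, here H2-K1 or H2-D1, paired with the light chain B2m. Nlrc5 is the transactivator of class I genes and acts at a conserved promoter module. Mc38 cells carry the same H2-K1 and H2-D1 alleles as the host, so that transcripts of tumor and host cells cannot be told apart in the tissue.

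In the GRCm38 coordinates of the deposited tables, 7 members lie in the MHC region of chromosome 17. Psmb9 (17:34181988-34187764, minus strand), Tap1 (17:34187553-34197225, plus strand), Psmb8 (17:34197721-34201454, plus strand) and Tap2 (17:34203527-34216321, plus strand) are neighbors there, with Tapbp at 17:33915899-33929288, H2-K1 at 17:33996017-34000333 and H2-D1 at 17:35262730-35267499. B2m lies on chromosome 2 (122147686-122153083) and Nlrc5 on chromosome 8 (94434356-94527272). The gene bodies of Tap1 and Psmb9 overlap by 212 bases on opposite strands, and the strand setting of the counting is not given in the sources used here. Tapbp shares 3421 bases with Zbtb22 on the same strand, which reached 691 counts in a tissue library. Of the 100-base stretches of the transcripts, 0.957% of H2-K1, 3.59% of H2-D1, 8.05% of Psmb8 and 14.8% of Tapbp occur in another gene, for Tapbp nearly all of them in Gm19412, which had at most 2 counts in a tissue library.

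RefSeq promoter sequences (GRCm38.p6, 250 bases before to 50 bases after the RefSeq start) were held for 7 of the 9 members, all but Tap2 and Nlrc5. The RefSeq start can differ from the gene coordinates given above, and the windows of H2-D1, Psmb8 and Tapbp lie wholly within those coordinates. The windows of 5 members are shown because their levels, given next, fall into different patterns. Capitals mark matches on either strand to 5 motifs of interferon and inflammatory signaling: the core of the interferon-stimulated response element, the interferon consensus sequence, the interferon-gamma-activated GAS element (TTCNNNGAA), a palindromic NF-kB site, and TGACG, the core letters of CREB/ATF sites. The interferon consensus sequence, the palindrome and TGACG were added after the sequences were seen.
H2-K1 promoter, chr17:34000284-34000583, minus strand: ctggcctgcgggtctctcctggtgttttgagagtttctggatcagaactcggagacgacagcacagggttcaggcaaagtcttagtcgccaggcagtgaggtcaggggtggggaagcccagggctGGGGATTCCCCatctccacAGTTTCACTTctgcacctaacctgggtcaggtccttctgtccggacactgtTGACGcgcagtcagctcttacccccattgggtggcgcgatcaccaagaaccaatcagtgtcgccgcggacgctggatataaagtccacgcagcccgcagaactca
H2-D1 promoter, chr17:35262844-35263143, plus strand: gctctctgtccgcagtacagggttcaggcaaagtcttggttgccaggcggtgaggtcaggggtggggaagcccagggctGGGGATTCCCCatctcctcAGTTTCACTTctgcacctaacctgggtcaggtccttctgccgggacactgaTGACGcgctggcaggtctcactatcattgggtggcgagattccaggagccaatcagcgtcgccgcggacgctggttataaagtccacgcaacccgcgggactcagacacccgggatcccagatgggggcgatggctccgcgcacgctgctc
B2m promoter, chr2:122147437-122147736, plus strand: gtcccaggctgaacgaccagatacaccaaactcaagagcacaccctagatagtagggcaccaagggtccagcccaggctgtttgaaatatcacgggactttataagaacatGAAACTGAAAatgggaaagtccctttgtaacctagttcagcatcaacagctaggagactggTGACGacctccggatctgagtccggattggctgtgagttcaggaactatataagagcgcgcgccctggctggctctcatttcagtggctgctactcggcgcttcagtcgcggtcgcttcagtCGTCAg
Tap1 promoter, chr17:34187306-34187605, plus strand: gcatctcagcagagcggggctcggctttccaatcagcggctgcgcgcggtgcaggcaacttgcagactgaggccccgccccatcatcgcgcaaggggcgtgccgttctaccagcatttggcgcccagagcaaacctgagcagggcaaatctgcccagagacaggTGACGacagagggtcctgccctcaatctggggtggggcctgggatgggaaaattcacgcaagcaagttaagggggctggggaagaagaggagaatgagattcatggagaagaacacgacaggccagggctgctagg
Psmb8 promoter, chr17:34197945-34198244, plus strand: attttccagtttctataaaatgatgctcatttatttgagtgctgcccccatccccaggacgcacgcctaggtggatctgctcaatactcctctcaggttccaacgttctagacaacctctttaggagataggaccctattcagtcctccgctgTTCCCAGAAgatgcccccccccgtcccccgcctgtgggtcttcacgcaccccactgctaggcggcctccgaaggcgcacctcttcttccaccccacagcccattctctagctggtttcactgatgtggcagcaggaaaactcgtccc
The H2-K1 and H2-D1 windows share an unbroken run of 47 bases, and both hold the NF-kB palindrome, the interferon consensus sequence and TGACG in the same order. Counted from the RefSeq start, these lie at -125, -106 and -55 of H2-K1 and at -171, -152 and -101 of H2-D1. A second RefSeq start of H2-K1 puts the same matches at -111, -92 and -41. The palindrome occurs in 0.0304% of the 32851 promoter windows of the same length (10 windows) and the interferon consensus sequence in 1.72%. The response element core was found at -139 of B2m (3.44% of all windows hold it), the GAS element at -97 of Psmb8 (8.30%) and TGACG in the windows of 5 members (20.8%), with no overlap between matches within a window. The Tap1 and Psmb9 windows, read from opposite strands, share 275 bases, so that 1 stretch of sequence lies upstream of both genes, and their TGACG matches are the same 5 bases counted for each. A match is a description of letters and not of a bound factor.

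The libraries held from 16032085 to 18246623 counts in tissue and from 17785496 to 20548370 in sorted cells, where 3 counts correspond to 0.146 to 0.187 CPM (counts scaled to library size). The members were far above this depth limit, from 164 counts of Nlrc5 in a con library upwards. Summed hepatocyte markers were at 156700 and 179699 CPM in con and at 2771 and 4031 CPM in Ht, whereas macrophage markers were at 327 and 514 CPM in con and at 2039 and 2066 CPM in Ht. All 7 hepatocyte markers and all 8 macrophage markers were detected in each tissue library. In the sorted cells, Adgre1, which encodes F4/80, was at 692 to 785 CPM in F4/80+TAM and at 508 to 547 CPM in CD11b+TAM, and Itgam, which encodes CD11b, at 245 to 296 CPM and at 350 to 439 CPM, so that both populations carried both markers. Ddx3y, on the Y chromosome, had 348 to 1421 counts in the tissue libraries and 0 in the sorted cells, while Xist had at most 3 counts in tissue and 5547 to 21805 in sorted cells. The labels give male mice for the tissue, whereas the Methods give female mice. CD11b+TAM replicate 3 stood apart from the other sorted libraries. In comparisons that use it, the number of members called and log2 fold changes of some members are given with and without it. Counts of calls in the other gene lists are given only with it.

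The members spanned 3 orders of level in normal liver. Per length, as FPKM (CPM divided by the gene length in kilobases), con livers held B2m at 2421 ± 191 (SD, n = 2), H2-K1 at 770 ± 51.6 and H2-D1 at 340 ± 45.3 FPKM. Tapbp followed at 35.0 ± 6.62, Psmb8 at 8.65 ± 2.45, Tap1 at 5.76 ± 0.71, Psmb9 at 4.80 ± 1.35, Tap2 at 4.31 ± 0.80 and Nlrc5 at 1.87 ± 0.38 FPKM. The intervals of mean ± SD overlapped between Psmb8 and Tap1, Tap1 and Psmb9, and Psmb9 and Tap2, and not between the other neighbors in this order. The same order of means was found in L-con, Lt, Mt3, Mt2 and Mt1, but in Ht H2-D1 (570 ± 29.3 FPKM) stood above H2-K1 (487 ± 20.9 FPKM). The libraries Ht_1 and Ht_3 were summed as Ht replicate 1 in these values, because according to the Methods they were rendered identical, so Ht counts as 2 samples. In the counts Ht_1 and Ht_3 differed beyond sampling noise, with a chi-square per degree of freedom of 30.3, near the 29.1 between Ht_1 and Ht_2 and above the 13.2 between Ht_2 and Ht_3. With Ht as 3 separate libraries the numbers of members called were the same in the 7 comparisons that use tissue.

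H2-K1, the classical heavy chain with the highest level in normal liver, was at 2104 and 1914 CPM (TMM-normalized) in the con replicates and at 2308 CPM in L-con. The Lt replicates held 2130 and 2262 CPM and the Mt3 replicates 2119 and 2261 CPM. At 11 dpi the level was 1856 and 1512 CPM (Mt2) or 1449 and 1336 CPM (Mt1), and in Ht 1231 and 1308 CPM. On this TMM scale the Lt and Mt3 samples lay above both con samples, and the Mt2, Mt1 and Ht samples below both. H2-D1, the other classical heavy chain of these mice, was at 961 and 795 CPM in con, 1349 CPM in L-con, and 1239 and 1522 CPM in Lt. The Mt3 replicates held 1310 and 1489 CPM, the Mt2 replicates 1420 and 1452 CPM, the Mt1 replicates 1366 and 1382 CPM and the Ht replicates 1417 and 1523 CPM. All 10 metastasis samples were above both con samples for H2-D1, with a spread of 91.5 CPM (SD) around a mean of 1412 CPM. B2m, the light chain that every class I heavy chain needs, was at 2199 and 1966 CPM in con and followed H2-K1, with 2222 and 2123 CPM in Lt and 1200 and 1356 CPM in Ht.

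From con to CRLM (the mean of the Lt, Mt3, Mt2, Mt1 and Ht groups against con), neither H2-K1 (log2 fold change -0.24, SE 0.22, adjusted p = 0.385) nor B2m (-0.27, SE 0.23, adjusted p = 0.333) passed the quasi-likelihood test of edgeR, whose p-values were adjusted over all tested genes by Benjamini-Hochberg. H2-D1 had a log2 fold change of 0.68 (SE 0.23, adjusted p = 0.0286), 1.61-fold, under the threshold of 1 on the log2 scale. With scaling by total counts instead of TMM, the median gene stood at 0.75 instead of 0.07 on the log2 scale from con to CRLM, and H2-K1 (0.44) and B2m (0.40) changed sign. Relative to that median H2-K1 stood at -0.31 under TMM and at -0.32 under total counts, and H2-D1 at 0.61 and 0.62. From con to Ht, where the same change of scaling raised the median gene from 0.09 to 1.28, H2-K1 stood at -0.76 and -0.75 relative to it and H2-D1 at 0.65 and 0.66.

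Tap1, a subunit of the peptide transporter, was at 34.3 and 28.8 CPM in con and 59.8 CPM in L-con. At 9 dpi its level was 76.0 and 134 CPM (Lt) or 79.1 and 107 CPM (Mt3), at 11 dpi 92.7 and 127 CPM (Mt2) or 98.3 and 137 CPM (Mt1), and at 12 dpi 121 and 145 CPM (Ht). Every metastasis sample was above both con samples and above L-con. Tap1 rose 3.52-fold from con to CRLM (log2 fold change 1.82, SE 0.28, adjusted p = 0.000949, edgeR). Tap2, its partner subunit, was at 18.4 and 14.1 CPM in con and at 28.5 to 57.6 CPM in the metastases, and rose 2.81-fold (1.49, SE 0.26, adjusted p = 0.00162). Tapbp was at 131 and 99.8 CPM in con and at 129 CPM in Lt replicate 1, which lay within the con range, whereas the other 9 metastasis samples were at 178 to 288 CPM. Its change from con to CRLM (log2 fold change 0.90, SE 0.24, adjusted p = 0.0121) stayed under the fold threshold, but Tapbp was called higher from con to Ht (1.16, SE 0.30, adjusted p = 0.0074).

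Psmb8, an immunoproteasome subunit, was at 28.4 and 18.9 CPM in con and 42.4 CPM in L-con. In metastases at 9 dpi it was at 62.7 and 115 CPM (Lt) or 58.3 and 83.8 CPM (Mt3), at 11 dpi at 70.8 and 120 CPM (Mt2) or 76.4 and 93.7 CPM (Mt1), and at 12 dpi at 113 and 114 CPM (Ht). Psmb8 had the largest change of the 9 from con to CRLM, 3.79-fold (log2 fold change 1.92, SE 0.32, adjusted p = 0.00144), with all 10 metastasis samples above con. Tap1 stood close to it at 1.82. With 1 library left out, Psmb8 fell as low as 1.66 and Tap1 no lower than 1.70, so the order of the 2 is not settled. Psmb9 was at 21.1 and 14.1 CPM in con and at 36.3 to 82.1 CPM in the metastases, and rose 3.07-fold (1.62, SE 0.33, adjusted p = 0.00343). Its highest sample was Lt replicate 2 (82.1 CPM) and its lowest was Mt3 replicate 1 (36.3 CPM). Nlrc5 was at 18.1 and 13.6 CPM in con, and the means of the 5 metastasis groups lay close together, from 37.1 ± 2.29 CPM in Ht to 42.4 ± 8.39 CPM in Mt1 (SD, n = 2 each). Nlrc5 rose 2.46-fold from con to CRLM (1.30, SE 0.25, adjusted p = 0.00258).

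**Figure D1:**
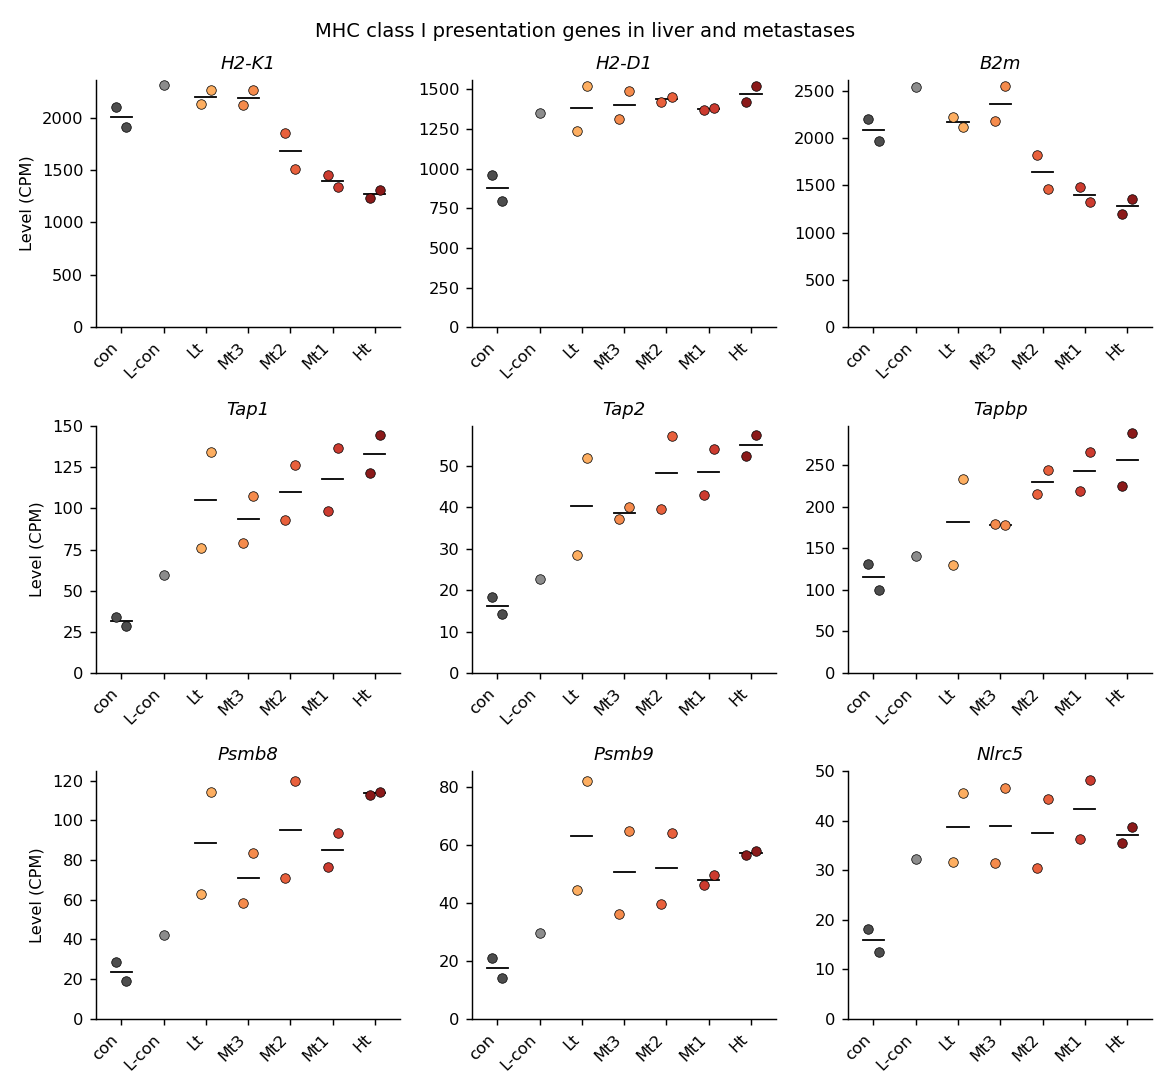
Level (CPM, TMM-normalized, axes from 0) of the 9 genes in each tissue sample; each point is 1 sample and each bar the mean of a group with 2 samples. On this TMM scale H2-K1 and B2m were lower in Mt2, Mt1 and Ht than in con, and neither was called lower from con to CRLM or to Ht. By total-count scaling the log2 fold changes of H2-K1 and B2m from con to Ht were 0.53 and 0.48. Tap1, Tap2, Psmb8, Psmb9 and Nlrc5 were above con in all 10 metastasis samples.

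All 10 metastasis samples were above both con samples for 6 of the 9 members, and for 26.4% of all genes tested. The single L-con library was above both con samples for 9 of 9 members, and for 36% of all genes tested. Of the set, 5 of 9 members were called higher and 0 lower from con to CRLM, where 35.4% of the 17187 genes tested were called, 20.9% as higher. The median log2 fold change of the 9 members was 1.30, and that of all genes 0.07. The same 5 members (Tap1, Tap2, Nlrc5, Psmb8 and Psmb9) were called from con to Lt, where 12.7% of the genes were called and 12.4% as higher. That early comparison rests on few samples. With 1 library left out at a time, the log2 fold changes of these 5 members lay between 0.81 (Tap2) and 2.26 (Psmb8), and those of Tap2 and Nlrc5 fell under 1 at their lowest. Fits that leave con or Lt with 1 sample take their spread from the other groups. From con to Ht, 6 of 9 were called higher, the 5 and Tapbp, against 49.9% of all genes called, 25.8% as higher and 24.1% as lower. Without Ht replicate 2 or con replicate 2 this count was 5, without Tapbp. By total-count scaling the genes called from con to CRLM split into 5937 higher and 1216 lower, against 3593 and 2498 under TMM, and 7 members were called, H2-D1 and Tapbp included.

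Cell content moved with these genes. Summed hepatocyte markers were at 2771 to 148028 CPM over the metastasis samples, lower than in con in each, while the pan-leukocyte marker Ptprc was at 10.6 and 19.2 CPM in con and at 39.3 to 118 CPM in the metastases. Within each of Lt, Mt3, Mt2 and Mt1, replicate 2 had the higher level of Tap1, Psmb8, Psmb9 and Nlrc5 and the lower sum of hepatocyte markers, for example 79262 against 148028 CPM in Lt and 20963 against 86712 CPM in Mt2. In con and Ht the sample with the higher level of these genes had the higher hepatocyte sum, replicate 1 in con (179699 against 156700 CPM) and replicate 2 in Ht (4031 against 2771 CPM). T cell markers summed to 2.76 and 12.1 CPM in con and to 7.61 to 25.2 CPM in the metastases, and NK and cytotoxic markers to 0.949 and 3.11 and to 5.45 to 38.0 CPM. Fibroblast and stellate markers summed to 276 and 384 CPM in con and to 1528 to 6927 CPM in the metastases, and monocyte markers to 9.57 and 12.8 and to 121 to 295 CPM. Endothelial markers summed to 399 and 433 CPM in con and to 140 and 152 CPM in Ht. The part of these shifts in the changes of the members was not tested. In bulk tissue, fewer cells of a type and less RNA per cell cannot be told apart.

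Other genes of the pathway moved unevenly. Of the 3 further genes of the immunoproteasome and its activator, Psmb10 (log2 fold change 0.80, SE 0.18, adjusted p = 0.00595, con to CRLM), Psme1 (0.32, SE 0.16, adjusted p = 0.127) and Psme2 (0.82, SE 0.29, adjusted p = 0.0373), 0 passed both thresholds from con to CRLM, beside 35.4% of all genes called, 20.9% as higher. From con to Lt, Psme2 was called higher (1.23, SE 0.35, adjusted p = 0.0484). Of the 3 constitutive catalytic subunits that the immunoproteasome subunits replace, and of the 11 other subunits of the 20S core, 0 were called in any of the 8 comparisons, at an edgeR adjusted p of at most 0.05 and a log2 change of at least 1. The share of all genes called ran from 0.0771% (CD11b+TAM to F4/80+TAM) to 49.9% (con to Ht). Psmb5 was at -0.25 (SE 0.13) from con to CRLM, Psmb6 at -0.17 (SE 0.13) and Psmb7 at -0.24 (SE 0.11). Of the 6 genes of peptide loading and trimming (the chaperones Calr, Canx, Hspa5 and Pdia3, the tapasin relative Tapbpl and the aminopeptidase Erap1), 0 were called in the tissue comparisons, with log2 fold changes of -0.44 to 0.54 from con to CRLM. In those comparisons 12.7% (con to Lt) to 49.9% (con to Ht) of all genes were called.

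Of 18 other class I heavy chains listed, 13 were tested in tissue, and 4 were called higher and 2 lower from con to CRLM, where 20.9% of all genes were called higher and 14.5% lower. The genes called higher were H2-M3, which presents formylated peptides (1.79, SE 0.36, adjusted p = 0.0034), H2-Q4 (1.68, SE 0.34, adjusted p = 0.00353), H2-T10 (1.31, SE 0.33, adjusted p = 0.0089) and H2-T24 (1.20, SE 0.20, adjusted p = 0.00158). The genes called lower were H2-Q10, a secreted class I protein made in liver (-1.60, SE 0.47, adjusted p = 0.0184), and the lipid-presenting Cd1d1 (-2.00, SE 0.45, adjusted p = 0.00535). H2-Q10 was at 2669 and 2664 CPM in con, and at 67.4 and 103 CPM in Ht, where hepatocyte markers were also lowest. H2-Q10, H2-Q4 and H2-T10 share 8.01%, 14.1% and 28.1% of their 100-base stretches with other genes, so that their counts are less certain than those of H2-K1.

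Among the transcriptional regulators of class I genes, Irf1 (log2 fold change 1.01, SE 0.22, adjusted p = 0.00465) and Nfya (1.55, SE 0.19, adjusted p = 0.00039) rose from con to CRLM. Irf2, a relative of Irf1 that binds the same elements, was at 65.9 and 75.1 CPM in con and at 28.6 and 34.2 CPM in Ht, at a log2 fold change of -0.71 (SE 0.14, adjusted p = 0.00312) from con to CRLM, under the fold threshold, and fell from con to Ht (-1.17, SE 0.19, adjusted p = 0.000781). Nfya also rose from con to Ht (2.22, SE 0.23, adjusted p = 0.000119), where Irf1 was at 0.98 and was not called. Irf1 carries the interferon-gamma signal to the promoter, and Nfya is a subunit of the CCAAT-binding factor that occupies class I promoters. Rfx5, Rfxap and Rfxank, which bind the same promoter module as Nlrc5, were at 0.40, -0.066 and 0.0025 from con to CRLM, and the other CCAAT-binding subunits Nfyb and Nfyc at -0.36 and 0.19, and were not called in either comparison. Of 6 genes of the interferon-gamma axis, Socs1, a feedback inhibitor of the pathway, rose (3.61, SE 0.39, adjusted p = 0.000253), as did the receptor chain Ifngr1 (1.10, SE 0.21, adjusted p = 0.00236). The other 3 tested, Ifngr2 (0.66), Jak2 (0.25) and Jak1 (-0.19), were not called, so that 2 of 5 were called beside 35.4% of all genes. Ifng itself did not pass the filter on low counts.

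The gene profiles most like that of the members were sought over the 13 tissue samples, by the root mean square difference from the mean centered log2 CPM of the 9. Among the nearest of 12582 genes were Psmb10 (0.0938), Irf1 (0.114), Gm6548 (0.134) and Cpne8 (0.136), against a median of 0.592 over these genes. Among the members, Nlrc5 (0.160) and H2-D1 (0.167) lay nearest to the mean profile, and H2-K1 (0.591) and B2m (0.626) lay farthest from it. Each member is part of that mean, which shortens its distance, so the distances of members and of other genes are not alike. The profiles of H2-K1 and B2m were the closest pair of members (0.0709), followed by Tap1 and Psmb8 (0.150) and by Tap1 and Tap2 (0.158). The points share libraries and tissue content, and the distances carry no test.

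Whether the balance between paired subunits changed was asked by ratios of counts per kilobase within each library, which do not depend on the scaling. The ratio of Psmb8 to Psmb5, the subunit it replaces, was 0.0808 and 0.0578 in con and 0.133 in L-con. At 9 dpi it was 0.149 and 0.330 (Lt) or 0.202 and 0.304 (Mt3), at 11 dpi 0.232 and 0.410 (Mt2) or 0.275 and 0.416 (Mt1), and at 12 dpi 0.447 and 0.516 (Ht). All 10 metastasis samples were above both con samples, with a mean difference of 2.17 on the log2 scale, 4.50-fold (exact two-sided permutation test, p = 0.0303, the smallest that 66 arrangements allow, adjusted p = 0.0606 over 6 ratio tests). The ratio of Psmb9 to Psmb6 was 0.0486 to 0.0752 in con and 0.131 to 0.280 in the metastases, a difference of 1.78 (exact permutation test, p = 0.0303, adjusted p = 0.0606). That of Psmb10 to Psmb7 was 0.593 to 0.779 and 0.923 to 1.90, a difference of 1.05 (exact permutation test, p = 0.0303, adjusted p = 0.0606). None of the 3 passed the adjustment, which this design could not reach.

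The order of the 2 classical heavy chains differed along the tissue series, with H2-K1 above H2-D1 in con and H2-D1 above H2-K1 in Ht. The ratio of H2-D1 to H2-K1 per kilobase, chosen for description after its values were seen and given without a test, was 0.462 and 0.420 in con and 0.591 in L-con. At 9 dpi it was 0.588 and 0.680 (Lt) or 0.625 and 0.666 (Mt3), at 11 dpi 0.773 and 0.971 (Mt2) or 0.954 and 1.05 (Mt1), and at 12 dpi 1.16 and 1.18 (Ht), with no overlap between con and any metastasis sample. In F4/80+TAM it was 1.04, 0.991 and 0.997, and in CD11b+TAM 1.05, 1.16 and 0.869. The ratio of B2m to H2-K1 showed no such course and stayed between 2.85 and 3.42 in all tissue samples. The ratio of Tap1 to Tap2 was 1.28 and 1.41 in con, 1.47 to 1.85 in the metastases and 2.08 to 2.77 in the sorted cells.

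**Figure D2:**
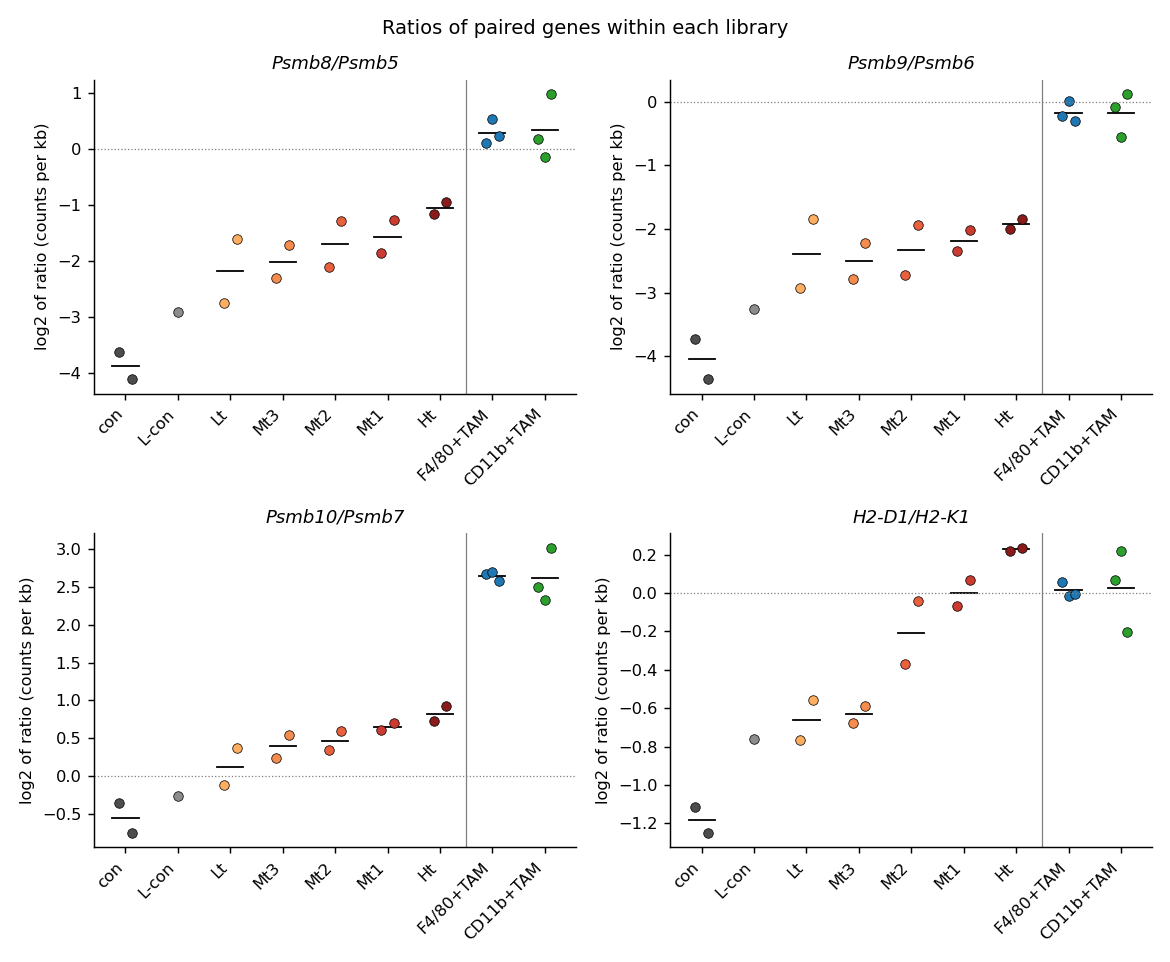
Log2 of the ratio of counts per kilobase for 4 gene pairs in each library; points are samples, bars are group means, and the vertical line separates tissue from sorted cells. The Psmb8 to Psmb5 ratio ran from 0.0578 in con to 0.516 in Ht and was 0.909 to 1.97 in the sorted cells, and the H2-D1 to H2-K1 ratio ran from 0.420 to 1.18 over the tissue samples.

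Between metastases of different stage, no member passed the test. From Lt to Ht, 0 of 9 members were called against 31.9% of all genes, 11.7% as higher and 20.2% as lower (edgeR; 9143 genes had an unadjusted p under 0.05), and from Mt to Ht 0 of 9 against 14.9%, 1.5% as higher and 13.4% as lower (edgeR). The values nearest to the threshold from Lt to Ht were those of H2-K1 (log2 fold change -0.79, SE 0.29, adjusted p = 0.0539) and B2m (-0.77, SE 0.30, adjusted p = 0.0678), both with every Ht sample below every Lt sample, as in 41% of all genes. H2-D1 was at 0.09 (SE 0.28, adjusted p = 0.809) and Nlrc5 at -0.06 (SE 0.28, adjusted p = 0.878). Tapbp had the largest positive value (0.50, SE 0.29, adjusted p = 0.188), and Lt replicate 2 (233 CPM) lay within the Ht range of 225 and 288 CPM. For Tap2 (0.45, SE 0.29, adjusted p = 0.229) both Ht samples, at 52.4 and 57.6 CPM, lay above the Lt samples at 28.5 and 52.0 CPM. Total-count scaling, under which the median gene stood at 0.87 instead of -0.01, gave 3 members (Tap1, Tap2 and Tapbp) called higher, and its calls over all genes split into 6216 higher and 2081 lower against 2004 and 3476 under TMM. From Mt to Ht that split was 2587 and 1773 against 257 and 2306.

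The sorted cells were set beside the Mt2 tissue libraries, whose sex-linked transcripts, given above, differ from theirs, so that they are not from the same mice. On the scale of the fit that joined tissue and sorted libraries, Tap1 was at 97.1 and 133 CPM in Mt2, at 427, 512 and 442 CPM in F4/80+TAM and at 425, 347 and 587 CPM in CD11b+TAM. Nlrc5 was at 32.0 and 46.7 CPM in Mt2, at 167, 185 and 170 CPM in F4/80+TAM and at 155, 131 and 89.3 CPM in CD11b+TAM. H2-K1 was at 1945 and 1585 CPM in Mt2, at 2987, 3267 and 3069 CPM in F4/80+TAM and at 2978, 2247 and 5164 CPM in CD11b+TAM. For each of the 9, every F4/80+TAM and every CD11b+TAM library was above both Mt2 libraries, which held for 33.5% of all genes tested in F4/80+TAM and for 29.4% in CD11b+TAM.

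From Mt2 to F4/80+TAM, 6 of 9 members were called higher and 0 lower, against 42.3% of the 18407 genes tested, 17.2% as higher (edgeR). The called members were Nlrc5 (4.41-fold, log2 fold change 2.14, SE 0.29, adjusted p = 2.03e-05), Tap1 (2.00, SE 0.31, adjusted p = 7.46e-05), Psmb9 (1.68, SE 0.44, adjusted p = 0.0053), Psmb8 (1.24, SE 0.47, adjusted p = 0.0382), Tap2 (1.23, SE 0.30, adjusted p = 0.00336) and H2-D1 (1.04, SE 0.27, adjusted p = 0.00501). H2-K1 was at 0.82 (SE 0.32, adjusted p = 0.0427) and B2m at 0.71 (SE 0.33, adjusted p = 0.0796). Without Mt2 replicate 1, 3 members were called. From Mt2 to CD11b+TAM the same 6 members were called against 43.9% of the genes, 17.6% as higher and 26.3% as lower, led by Psmb9 (4.91-fold, 2.30, SE 0.46, adjusted p = 0.000651) and Psmb8 (4.12-fold, 2.04, SE 0.49, adjusted p = 0.00266). Without CD11b+TAM replicate 3 the log2 fold changes of Psmb9 (1.62) and Psmb8 (1.21) were below those of Nlrc5 (1.86) and Tap1 (1.75). The count without it was 5, H2-D1 being at 0.92, and without replicate 1 or 2 it was 9.

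These comparisons join 2 tables, and the kind of sample, the table and the sex-linked signal change together, so that they cannot be told apart. Hepatocyte markers, summed to 20963 and 86712 CPM in Mt2, were at 147 to 266 CPM in F4/80+TAM and at 43.8 to 136 CPM in CD11b+TAM. The 2 comparisons share the Mt2 samples. Of all genes, 17.2% were called higher and 25.2% lower in F4/80+TAM, and 17.6% and 26.3% in CD11b+TAM. Beside these shares, the immunoproteasome and activator genes had 2 of 3 called higher in F4/80+TAM (Psmb10 and Psme1) and 3 of 3 in CD11b+TAM. The other heavy chains had 7 and 8 of 14 higher with 4 lower in each, and the other 20S subunits 0 of 11 in either. The list counts in CD11b+TAM are given only with its replicate 3. On the scale of the sorted libraries Psme2 was at 395 CPM in that library, against 86.3 and 126 CPM in the other CD11b+TAM libraries.

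**Figure D3:**
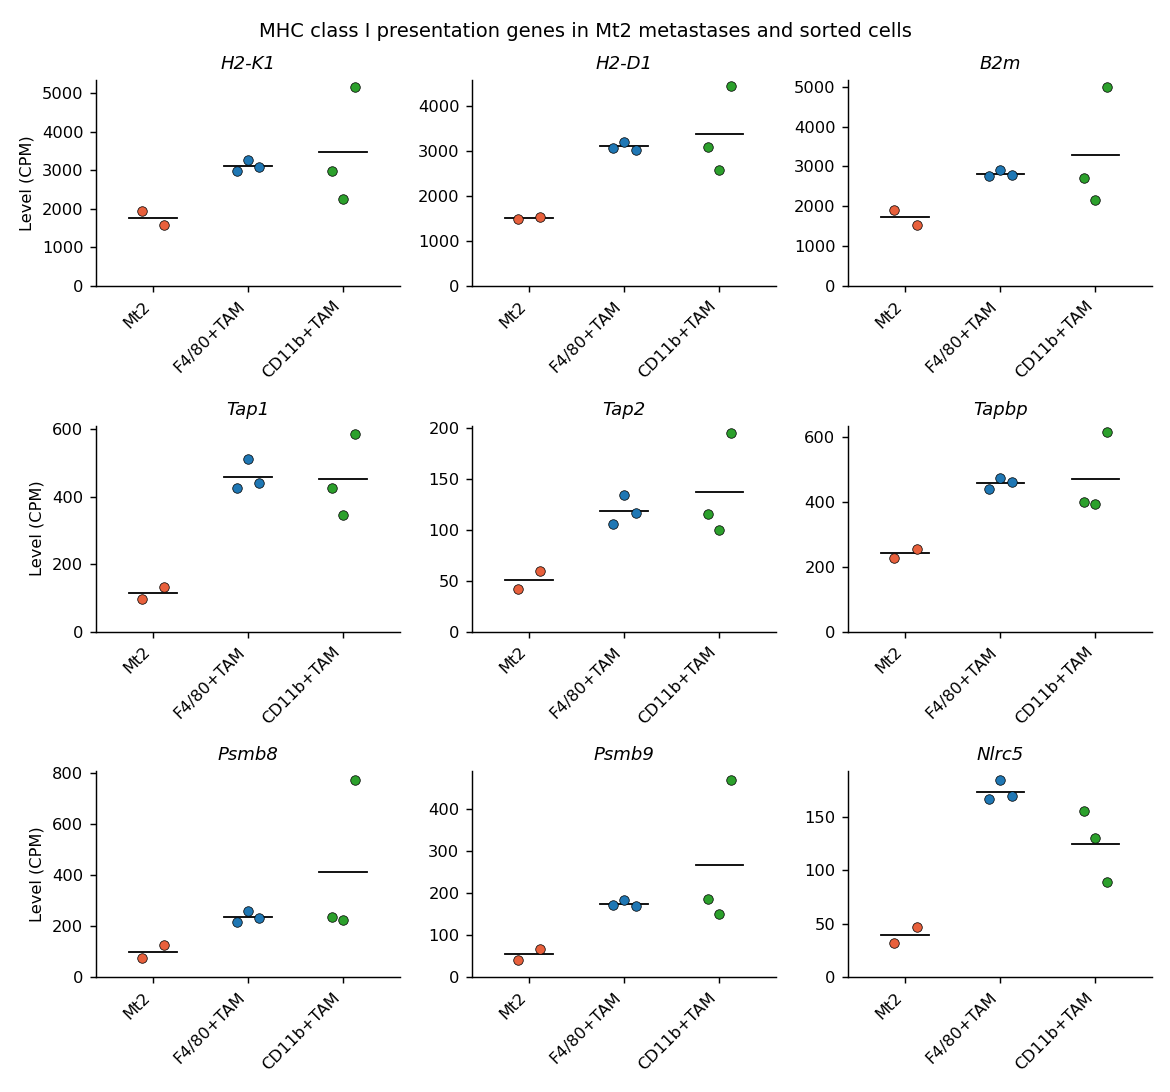
Level (CPM, TMM-normalized over tissue and sorted libraries together, axes from 0) of the 9 genes in Mt2 metastases and in the 2 sorted populations; points are samples and bars group means. Every sorted library lies above both Mt2 libraries for each gene, and CD11b+TAM replicate 3, the last green point, is the highest for 8 genes and the lowest sorted library for Nlrc5.

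Between the sorted populations, 0 of 9 members were called by edgeR from CD11b+TAM to F4/80+TAM, where 0.0771% of the 14263 genes were called (11 genes, 0.00701% higher and 0.0701% lower), and 1503 had an unadjusted p under 0.05; DESeq2 called 300 genes and 0 members. On the scale of the sorted libraries, Psmb8 was at 238, 278 and 251 CPM in F4/80+TAM and at 265, 250 and 877 CPM in CD11b+TAM. Nlrc5, by contrast, was at 181, 200 and 184 CPM in F4/80+TAM and at 173, 146 and 101 CPM in CD11b+TAM, the only member whose populations did not overlap, where 11.5% of all genes had every F4/80+TAM library above every CD11b+TAM library (log2 fold change 0.42, SE 0.21, adjusted p = 0.489). H2-K1 was at 3251, 3524 and 3325 CPM and at 3324, 2513 and 5862 CPM.

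CD11b+TAM replicate 3 decided the direction of most members. With all 6 libraries the log2 fold change was -0.86 (SE 0.47) for Psmb8, -0.67 (SE 0.40) for Psmb9, -0.21 (SE 0.31) for H2-K1 and -0.28 (SE 0.32) for B2m. Without this library it was -0.0058 for Psmb8, 0.016 for Psmb9, 0.21 for H2-K1 and 0.17 for B2m, and 0 members were called, while 136 genes were. In the same library Psmb10 was at 610 CPM against 223 and 235 CPM in the other CD11b+TAM libraries, and Irf1 at 361 against 175 and 141 CPM. The constitutive subunit Psmb5 was also higher there, 146 against 77.1 and 90.3 CPM. The TMM factor of this library was 0.838, against 1.02 to 1.05 in the other sorted libraries, and a lower factor raises the CPM of every gene in it. Summed neutrophil markers were at 3474 CPM in it and at 951 and 1032 CPM in the other CD11b+TAM libraries, with 154 to 429 CPM in F4/80+TAM, and their part in the result was not tested.

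Within the sorted libraries the counts per kilobase of Psmb8 and Psmb9 stood near those of the subunits they replace, and those of Psmb10 above those of Psmb7. These ratios rest on the deposited gene lengths (2736 bases for Psmb8 and 3659 for Psmb9), so a ratio of 1 need not mean equal numbers of transcripts. The ratio of Psmb8 to Psmb5 per kilobase was 1.07, 1.45 and 1.17 in F4/80+TAM and 1.13, 0.909 and 1.97 in CD11b+TAM. The ratio of Psmb9 to Psmb6 was 0.858, 1.01 and 0.811 and 0.943, 0.685 and 1.09, and that of Psmb10 to Psmb7 was 5.97 to 6.47 and 5.03 to 8.12. The difference between the populations was -0.05 on the log2 scale for Psmb8 to Psmb5 (exact permutation test, p = 0.9), and 3 samples against 3 cannot give a p under 0.1.

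**Figure D4:**
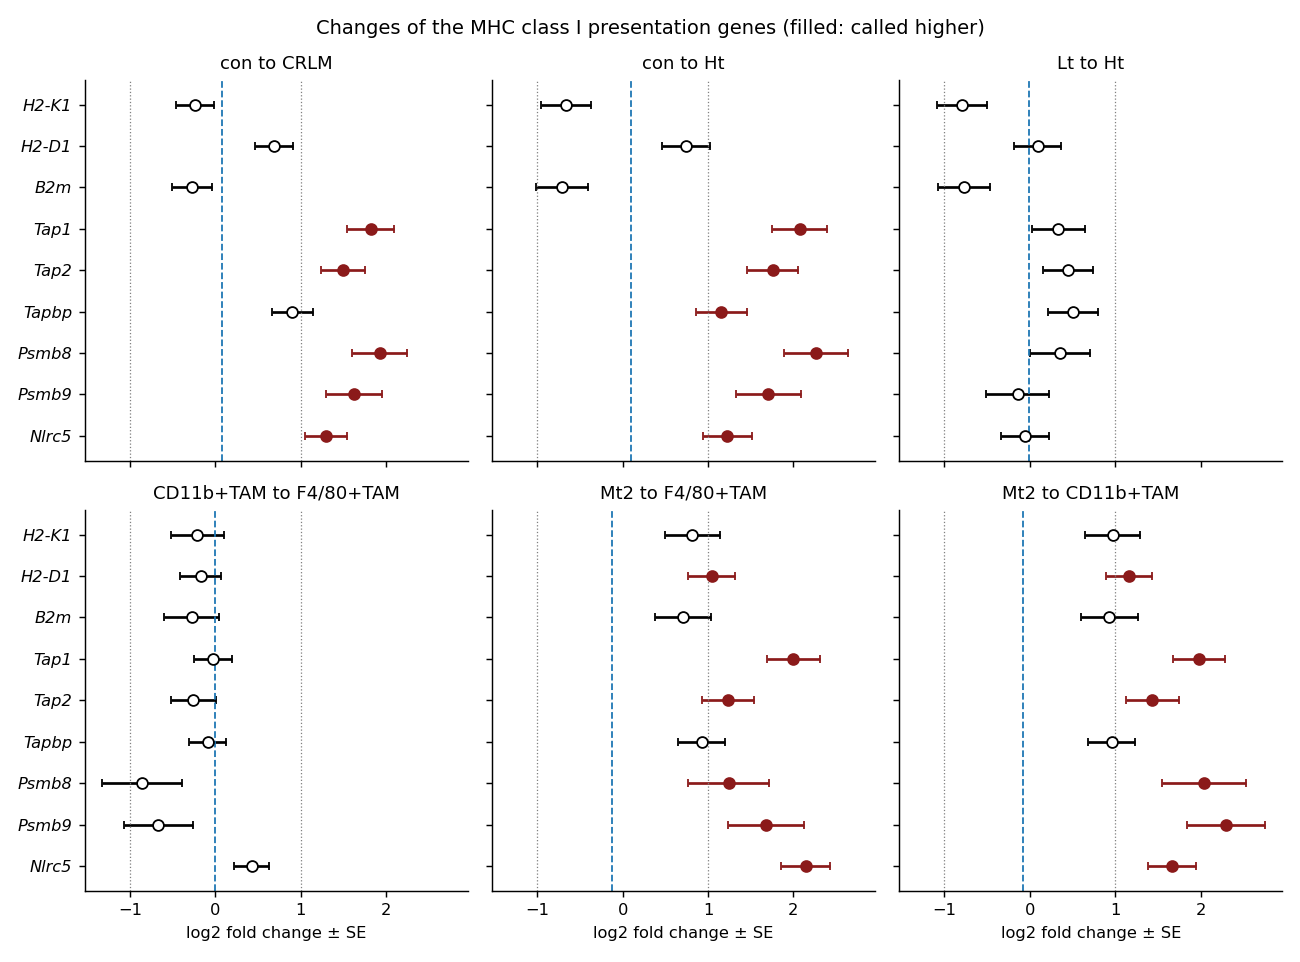
Log2 fold change with its SE (horizontal axis) of the 9 genes (vertical axis) in 6 comparisons; filled points were called higher by edgeR, dotted lines mark a log2 fold change of 1 and -1, and the dashed line is the median of all genes tested. From con to CRLM 5 genes and from Mt2 to F4/80+TAM 6 genes were called, and 0 from Lt to Ht and from CD11b+TAM to F4/80+TAM.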

How the data were processed

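RNA was extracted with TRIzol and libraries were made with the NEBNext Ultra RNA kit. The authors deposited raw counts of reads per gene, with no normalization, in 1 table of tissue and 1 of sorted cells. The submitters' processing notes name CASAVA, HISAT2 2.0.5, featureCounts 1.5.0-p3 and GRCm38/mm10; the handling of strand and of reads with several matches is not given in the sources used here. The sorted table pairs no names with its IDs, so members were found there by the gene ID of the tissue table. 0 columns were left unmapped. Groups came from the sample labels. Ht_1 and Ht_3, made identical according to the Methods, were summed.

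Counts were scaled by TMM (edgeR 4.0.16, R 4.3.3), filtered by filterByExpr on the groups (17187 tissue, 14263 sorted and 18407 joint genes kept) and compared by quasi-likelihood F tests, with p-values adjusted by Benjamini-Hochberg. Calls needed an adjusted p not above 0.05 and a log2 fold change of 1 or more in either direction, as in the study. SEs came from the F statistic. L-con entered the tissue fit without a test. Ratios were compared by exact permutation in Python 3.11.15. Simulated counts were used to check each fit.

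Named genes were the 9 members, hand-written pathway and marker lists and the 5 genes of most like profile; genes, lists, tests and rules were chosen with earlier results of these data known. Results of 1 listed gene are not reported here. Alternatives were DESeq2 1.42.0, total-count scaling, at least 10 counts in every library, no filter, adjusted p alone, other groupings of Ht and Mt, only the groups compared, 0.5 added to each count in ratios, the replicate number as a block, and leaving out each library. Floors of 3 counts cover counting error only.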

Additional observations from a re-analysis of the deposited data

Results flagged for a closer look

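The L-con library entered none of the comparisons, having no replicate, and each of the 9 members was above both con libraries in it, as were 36% of all genes tested. Levels there were 2308 CPM for H2-K1 (con 1914 to 2104), 1349 CPM for H2-D1 (795 to 961), 2539 CPM for B2m (1966 to 2199), 59.8 CPM for Tap1 (28.8 to 34.3), 22.7 CPM for Tap2 (14.1 to 18.4), 140 CPM for Tapbp (99.8 to 131), 32.3 CPM for Nlrc5 (13.6 to 18.1), 42.4 CPM for Psmb8 (18.9 to 28.4) and 29.6 CPM for Psmb9 (14.1 to 21.1). Relative to the con mean these were 1.15-fold for H2-K1 to 2.04-fold for Nlrc5. In the same library Ptprc was at 41.1 CPM against 10.6 and 19.2 CPM in con, Adgre1 at 91.4 against 30.8 and 48.8 CPM, and Alb at 98196 against 113474 and 133957 CPM. With 1 library the difference has no replicate check and was not tested.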

How the results depend on the processing

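The 5 members called from con to CRLM were 5 to 7 under every alternative, and the 0 called from Mt to Ht and from CD11b+TAM to F4/80+TAM stayed 0. Same-numbered samples deviated together among Lt, Mt3, Mt2 and Mt1 (correlations of 0.15 to 0.56), but not with con (-0.12 to -0.058) or Ht (-0.27 to -0.052), nor in the sorted cells (-0.067, -0.12 and 0.012), so the numbers were not taken as pairs. With the replicate block, 78 genes were called from CD11b+TAM to F4/80+TAM and 5 members from Mt2 to F4/80+TAM, and with the con numbers crossed, an alternative added after seeing the data, 2494 genes and 5 members from con to Lt. Under total-count scaling the counts were 8297 genes and 3 members from Lt to Ht, 4360 genes from Mt to Ht and 6 from CD11b+TAM to F4/80+TAM; signs reversed for H2-K1 and B2m from con to CRLM (0.44 and 0.40), con to Ht (0.53 and 0.48), Lt to Ht (0.10 and 0.13) and Mt to Ht (0.12 and 0.10), for Nlrc5 (0.81 Lt to Ht, 0.43 Mt to Ht), Psmb9 (0.71, Lt to Ht), and, between sorted populations, Tap1 (0.089) and Tapbp (0.034). With at least 10 counts in every library, which leaves fewer genes, 3802 (con to CRLM), 1154 (con to Lt), 5 (CD11b+TAM to F4/80+TAM), 3742 (Mt2 to F4/80+TAM) and 3870 (Mt2 to CD11b+TAM) were called. With the adjusted p alone 9424 (con to CRLM) and 3888 (Mt to Ht), and with no filter 242 (sorted), were called; DESeq2 called 300 (sorted). B2m from con to Lt reversed to -0.0082 by DESeq2, and Nlrc5 from Lt to Ht to 0.038 by DESeq2, 0.023 with 10 counts and 0.064 with no filter. The causes were not tested. Where leaving out a library left a group with 1 sample, the spread came from the other groups, which limits what the counts below can show. Leaving out 1 library at a time gave 735 to 2284 genes and 0 to 5 members (con to Lt), 2786 to 5960 genes (Lt to Ht), 0 to 3549 (Mt to Ht, 0 without Ht replicate 2), 0 to 136 (CD11b+TAM to F4/80+TAM), 3 to 7 members (Mt2 to F4/80+TAM) and 5 to 9 members (Mt2 to CD11b+TAM). Log2 fold changes reversed for B2m from con to Lt (-0.028 to 0.13), from Lt to Ht for H2-D1 (-0.033 to 0.25), Nlrc5 (-0.28 to 0.23) and Psmb9 (-0.50 to 0.37), for Nlrc5 from Mt to Ht (-0.18 to 0.011), and between sorted populations for H2-K1 (-0.45 to 0.21), H2-D1 (-0.34 to 0.087), B2m (-0.51 to 0.17), Tap1 (-0.20 to 0.21), Tap2 (-0.45 to 0.10), Tapbp (-0.21 to 0.17) and Psmb9 (-0.96 to 0.016); the sorted ratios ranged from -0.29 to 0.27 (Psmb8/Psmb5), -0.19 to 0.15 (Psmb9/Psmb6) and -0.11 to 0.24 (Psmb10/Psmb7).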
